A study of Mus musculus with 9 samples.

Results

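Of the 38685 genes and loci in the deposited table of testis RNA, 10 are described here, namely the enzymes and the glucose transporter that carry glycolysis in sperm. They were chosen by gene symbol and not by their values, and each of the 10 had 1 row in the table. Gapdhs, Pgk2, Ldhc, Eno4 and Pgam2 are isoforms used by germ cells, with Pgam2 shared with muscle. Hk1, Gpi1, Aldoa and Slc2a3 are genes of other tissues that sperm also use, and Ldha is the lactate dehydrogenase subunit of somatic tissues that Ldhc replaces in germ cells.

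Glycolysis splits glucose into pyruvate and yields ATP, and lactate dehydrogenase turns pyruvate into lactate while it returns the NAD that the pathway consumes. Spermatogenesis swaps several of these enzymes for isoforms with a gene of their own, in part since X-linked genes such as Pgk1 are silenced in meiosis and autosomal copies such as Pgk2 take over. Many of the sperm isoforms are bound to the fibrous sheath of the flagellum, and loss of GAPDHS, PGK2 or LDHC is known to impair sperm motility.

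The study compared testes of male C57BL/6 mice of 3 genotypes, Prm2+/+, Prm2+/- and Prm2-/-, to ask whether loss of protamine 2 alters testicular gene expression. Protamine 2 is one of the small proteins that replace histones in the sperm nucleus. Each genotype had 3 libraries made with QuantSeq, which reads polyadenylated RNA near its 3′ end, after the capsule of the testis had been removed. No treatment was given by the labels, and the age of the mice and the extent of the deletion are not given in the sources used here. Values are normalized counts, that is, gene counts divided by 1 size factor per library. Total recovered counts ran from 3629929 to 4490411 per library. Fewer cells of a type and less RNA per cell cannot be told apart in whole testis.

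The genotypes are those of the labels. The transcript of Prm2 was not lower where the gene is labelled as lost (37810 ± 4344 normalized counts, against 33050 ± 5732 in the wildtype libraries, SD, n = 3 each), so it does not check them. Replicate 3 of Prm2+/+ stood apart from the other libraries. It had the fewest counts, 602 of the 14893 tested genes were at 0 in it against 121 to 242 in the others, and it alone was at a low level for 437 genes against 22 to 63 for any other library. Results that rest on it are given with and without it. Spermatid markers were high everywhere, with summed normalized counts of 202000 to 224900 for 6 markers of elongating spermatids. Of 6 Sertoli markers 5 were detected, and Amh was at 0 in all 9 libraries. Of 3 epididymal markers 2 were detected, with sums of 0 to 7.60 in Prm2+/+, 0 to 3.65 in Prm2+/- and 0 in Prm2-/-. The epididymal marker Lcn5 was at 0 in all 9 libraries.

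The lactate dehydrogenase genes Ldha and Ldhc lie next to each other. By median normalized count in each genotype, the levels of these neighbours were the furthest apart among the 10 genes. On the plus strand of chromosome 7 (GRCm38), Ldha runs from 46841475 to 46855627 and Ldhc from 46861203 to 46878142. Sequences before the first RefSeq start of each are printed to compare these neighbours, together with those of Gapdhs and Pgk2, also expressed in germ cells. They come from the RefSeq promoter table (GRCm38.p6), read 5′ to 3′ on the strand of the gene, and end at that start for Ldha and Gapdhs, 30 bases before it for Ldhc and 1 base before it for Pgk2. GENCODE M21 places starts differently for some of these genes. By that annotation the last 30 printed bases of Ldhc and of Pgk2 are exon, and the printed Ldha sequence lies inside the gene, downstream of an earlier start, with 0 bases in an exon. Capitals mark TGACGT on either strand, the core of the cyclic AMP response element that is bound by the spermatid factor CREM.
Ldhc, chr7:46861113-46861232, plus strand: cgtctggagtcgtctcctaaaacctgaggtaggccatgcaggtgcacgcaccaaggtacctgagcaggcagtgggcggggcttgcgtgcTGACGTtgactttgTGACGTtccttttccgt
Ldha, chr7:46845654-46845803, plus strand: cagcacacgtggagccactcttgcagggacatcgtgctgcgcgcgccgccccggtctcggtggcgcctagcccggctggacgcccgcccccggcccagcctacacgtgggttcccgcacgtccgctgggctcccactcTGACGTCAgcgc
Gapdhs, chr7:30743682-30743831, minus strand: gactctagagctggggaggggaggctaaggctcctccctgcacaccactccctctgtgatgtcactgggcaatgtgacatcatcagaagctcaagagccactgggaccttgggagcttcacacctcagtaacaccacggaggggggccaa
Pgk2, chr17:40208611-40208759, minus strand: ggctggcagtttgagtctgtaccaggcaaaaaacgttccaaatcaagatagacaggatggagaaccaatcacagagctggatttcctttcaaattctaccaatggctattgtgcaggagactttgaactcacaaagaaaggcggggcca
Ldhc had 2 matches to TGACGT, which begin 61 and 47 bases before the RefSeq start. By GENCODE M21 the second match and all but the first base of the first lie in the first exon. Ldha had the full palindrome TGACGTCA, which begins 12 bases before the RefSeq start and holds 2 overlapping matches to TGACGT. In the 250 bases before the start, 6.56% of 27025 listed promoters held TGACGT and 1.62% held TGACGTCA. No match was found for Gapdhs, Pgk2, Hk1, Eno4, Pgam2, Gpi1 or Aldoa. For Gpi1 and Aldoa the listed sequence ended 120 bases before the start, so the bases nearest to it were not searched. For Slc2a3 no promoter was searched. A match of letters is a description and not a binding site.

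Ldhc, Gapdhs, Pgk2 and Pgam2 were among the most abundant transcripts of the testis, and the germ-cell isoform Eno4 was not. By median normalized count in Prm2+/+, Ldhc ranked 4 of the 14893 tested genes, Gapdhs 59, Pgk2 105, Slc2a3 138 and Pgam2 149. Aldoa ranked 804 and Gpi1 1116. Eno4 ranked 4154, Hk1 9689 and Ldha 12149. Levels of different genes were compared as normalized counts per kb of transcript, although counts from 3′ reads need not grow with length.
On this scale the order of the Prm2+/+ means was Ldhc (15850 ± 12170), Pgam2 (3790 ± 928), Gapdhs (3586 ± 554), Pgk2 (2112 ± 251), Slc2a3 (747 ± 76.3) and Aldoa (673 ± 98.2), then Gpi1 (272 ± 63.8), Eno4 (53.9 ± 28.1), Hk1 (9.80 ± 2.46) and Ldha (8.61 ± 4.41), all as SD of 3 libraries. The ranges of Pgam2 and Gapdhs overlapped, as did those of Slc2a3 and Aldoa and those of Hk1 and Ldha, so these neighbours could not be ranked. Ldhc reached down to 1828 in replicate 3 of Prm2+/+, below the Pgk2 range, and in the other 2 libraries it lay above every other gene of the 10. In Prm2-/- the bottom of the order differed: per kb, Ldha took 23.3 to 30.8 and Hk1 10.1 to 20.3, without overlap, and the lowest Eno4 library (29.2) lay within the range of Ldha.

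**Figure D1:**
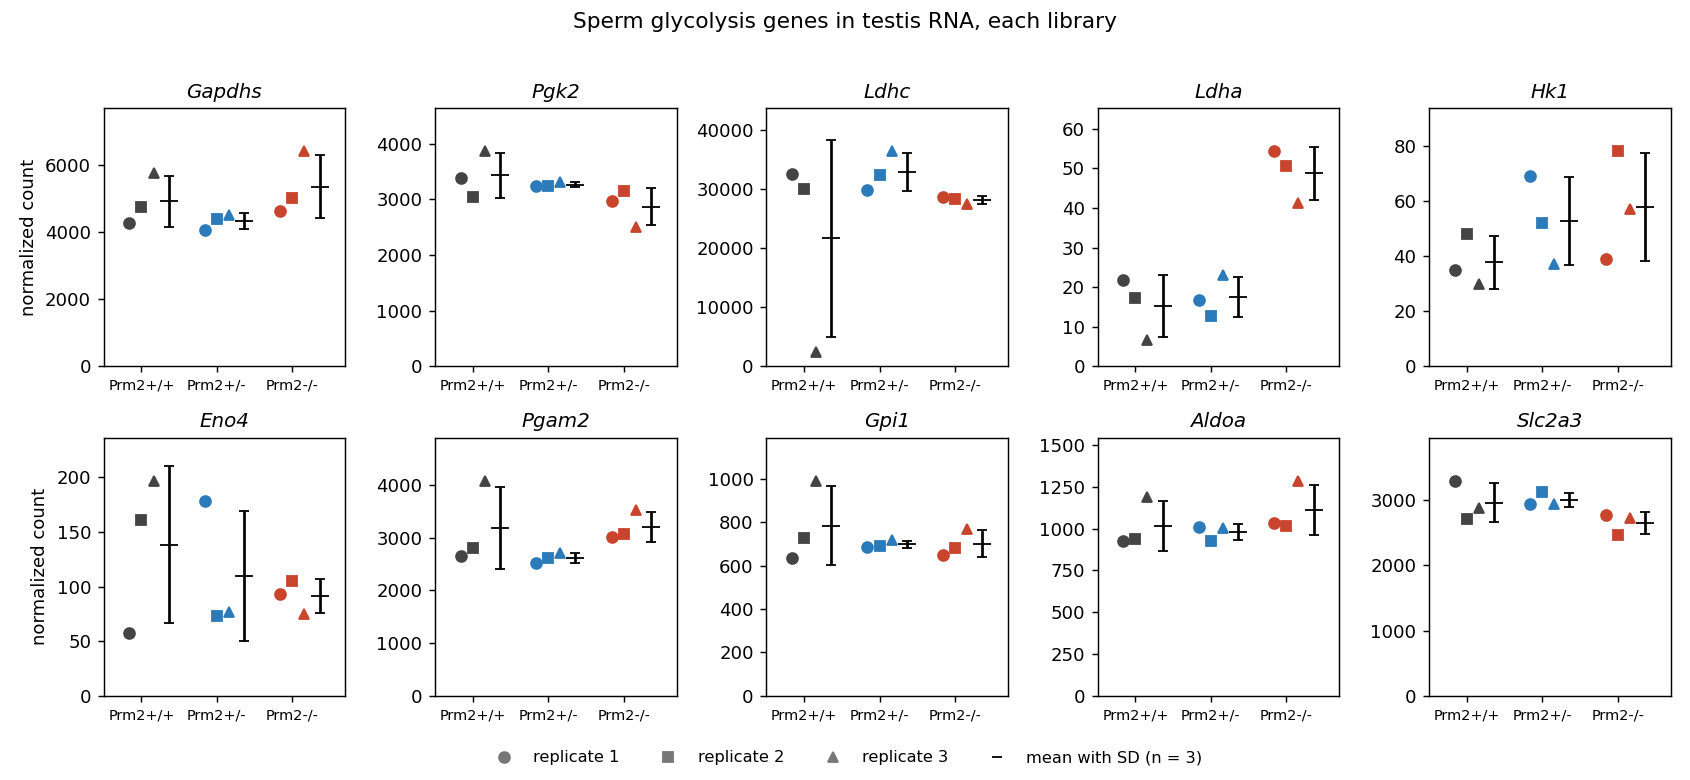
Normalized count (vertical axis, from 0, with its own scale for each gene) of the 10 genes in each of the 9 libraries, by genotype; symbols mark the replicate number and black bars the mean with SD of 3 libraries. Ldha is the gene whose 3 Prm2-/- libraries (41.2 to 54.3) all lie above the other 6 (6.63 to 23.0), and Ldhc has a single low library in Prm2+/+ (2505).

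None of the 10 genes was called differentially expressed in any of the 3 comparisons. A call needed an adjusted p under 0.05 in limma, with Benjamini-Hochberg adjustment over all 14893 tested genes, and a log2 fold change (LFC) beyond 0.5, and all 10 genes passed the filter on low counts. Between Prm2-/- and Prm2+/+, 0 of 10 were called where 0.181% of tested genes were, and the adjusted p-values ran from 0.392 to 0.970 in limma. Between Prm2+/- and Prm2+/+ it was 0 of 10 beside 0.0806%, with adjusted p from 0.842 to 0.964. For Prm2-/- against Prm2+/- it was 0 of 10 beside 0.175%, with adjusted p from 0.738 to 0.9997. At an unadjusted p under 0.05 in limma, 2, 0 and 1 of the 10 genes passed in these comparisons, beside 7.33%, 4.24% and 5.44% of tested genes. edgeR called 0 of 10 in each, beside 0.161%, 0.0671% and 0.154%. DESeq2 called 1 of 10, Ldha, in the first comparison only, beside 0.787%, 0.313% and 0.619% of the genes it tested. The median LFC of the 10 genes was 0.08, -0.06 and 0.06 in the 3 comparisons, and that of all tested genes was 0.02, 0.01 and -0.01.

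Ldha (ENSMUSG00000063229) had its highest values in Prm2-/- testes. It had 21.9, 17.1 and 6.63 normalized counts in the Prm2+/+ libraries, 16.8, 12.8 and 23.0 in Prm2+/-, and 54.3, 50.7 and 41.2 in Prm2-/-. All 3 Prm2-/- libraries thus lay above the other 6, a pattern that 2.37% of tested genes shared, while in 2.20% all 3 lay below, which held for 0 of the 10 genes. The LFC against Prm2+/+ was 1.75 (SE 0.41, 95% confidence interval 0.79 to 2.71), which did not pass the adjustment in limma (unadjusted p = 0.00295, adjusted p = 0.392). Against Prm2+/- the LFC was 1.45 (SE 0.41, adjusted p = 0.738 in limma).
The call of Ldha depended on the tool. DESeq2 gave an LFC of 1.67 against Prm2+/+ with an adjusted p of 0.0392, while edgeR gave the same LFC with an adjusted p of 0.366. Without replicate 3 of Prm2+/+, where Ldha was lowest, the LFC against Prm2+/+ fell to 1.28 in limma (SE 0.27, adjusted p = 0.282), 1.32 in edgeR (adjusted p = 0.268) and 1.32 in DESeq2 (adjusted p = 0.0524). In that fit DESeq2 called Ldha against Prm2+/- instead, with an LFC of 1.48 and an adjusted p of 0.00302, and limma did not (adjusted p = 0.122). It then called 0, 0 and 1 of the 10 genes in the 3 comparisons, beside 1.15%, 0.538% and 1.01% of the genes it tested, and limma called 0 of 10 in each, beside 0.295%, 0.235% and 0.322%.
The markers of several cell types are given beside Ldha. Their summed normalized counts overlapped between Prm2+/+ and Prm2-/-, with 2406 to 3220 and 2713 to 2959 for 6 Sertoli cell markers, 1564 to 1883 and 1795 to 1997 for 5 Leydig cell markers, and 107 to 165 and 140 to 187 for 4 macrophage markers. The sums also overlapped for 6 spermatogonia markers (221 to 329 and 246 to 287) and 6 spermatocyte markers (4952 to 6748 and 5908 to 6050). Those of 5 red blood cell markers (676 to 1188 and 804 to 1264) overlapped too. The 4 peritubular markers took 293 to 325 in Prm2+/+ and 226 to 271 in Prm2-/-, which did not overlap and went the other way. The median LFC of the tested markers between Prm2-/- and Prm2+/+ was 1.24 for macrophages (3 markers) and 0.18 for Leydig cells and for spermatogonia. It was 0.11 for red blood cells, 0.08 for spermatocytes, 0.02 for Sertoli cells and -0.28 for peritubular cells. The macrophage value was the highest of these, below the LFC of 1.75 of Ldha. None of these markers was called in limma. The part of any cell type in the level of Ldha was not tested.

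Ldhc (ENSMUSG00000030851), the germ-cell lactate dehydrogenase, was the most abundant of the 10 genes, with 1 library apart. It had 32530, 30090 and 2505 normalized counts in Prm2+/+, 29890, 32400 and 36390 in Prm2+/-, and 28720, 28300 and 27410 in Prm2-/-. Replicate 3 of Prm2+/+ lay 12.0-fold below the median of the other 8 libraries, which spanned 27410 to 36390. With all libraries the LFC of Prm2-/- against Prm2+/+ was 1.06 (SE 0.86, adjusted p = 0.761 in limma), and without that library it turned to -0.15 (SE 0.08, adjusted p = 0.666). The Prm2-/- libraries also lay below all 3 Prm2+/- libraries, with an LFC of -0.22 (adjusted p = 0.9997 in limma, and 0.547 without replicate 3 of Prm2+/+).
The genes whose pattern over the 9 libraries came closest to that of Ldhc were Art3, Tle3 and Popdc2, with mean absolute differences of 0.104, 0.107 and 0.131 in centred log2 values among 727 genes that vary at least as much. All 3 were low in the same library, at 44.2, 22.1 and 26.5 normalized counts, where the other libraries had at least 487 for Art3, 260 for Tle3 and 320 for Popdc2. A gene was said to take 2 levels if its log2 values split at a gap above 2 into sets that each span less than 0.5 of it. This held for 1 of the 10 genes, Ldhc, and for 10.4% of tested genes.

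Gapdhs (ENSMUSG00000061099), the sperm glyceraldehyde-3-phosphate dehydrogenase, and Pgam2 (ENSMUSG00000020475), a phosphoglycerate mutase, had their high values in the same libraries. Gapdhs had 4253, 4727 and 5737 normalized counts in Prm2+/+, 4060, 4375 and 4509 in Prm2+/-, and 4627, 5004 and 6392 in Prm2-/-. Pgam2 had 2663, 2808 and 4080 in Prm2+/+, 2512, 2624 and 2717 in Prm2+/-, and 3016, 3073 and 3529 in Prm2-/-. For both genes, and for Aldoa and Gpi1, the highest values were those of replicate 3 of Prm2+/+ and replicate 3 of Prm2-/-. Among 4658 genes that vary at least as much, Pgam2 was the third closest to Gapdhs (mean absolute difference 0.0674 in centred log2 values), after Fyco1 (0.0415) and Nutm1 (0.0567).
The Prm2+/+ and Prm2-/- libraries overlapped for both, with an LFC of 0.12 (SE 0.14) for Gapdhs and 0.03 (SE 0.16) for Pgam2. Without replicate 3 of Prm2+/+ these became 0.24 (SE 0.13, adjusted p = 0.692 in limma) and 0.23 (SE 0.08, adjusted p = 0.520). Against Prm2+/- the Prm2-/- libraries were higher without overlap, with an LFC of 0.30 for Gapdhs and 0.29 for Pgam2 (adjusted p = 0.952 and 0.963 in limma).

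Pgk2 (ENSMUSG00000031233), the autosomal phosphoglycerate kinase of germ cells, had 3388, 3052 and 3864 normalized counts in Prm2+/+, 3238, 3239 and 3321 in Prm2+/-, and 2969, 3143 and 2502 in Prm2-/-. The lowest value belonged to replicate 3 of Prm2-/- and the highest to replicate 3 of Prm2+/+, and the 2 groups overlapped. Its LFC of -0.26 (SE 0.11) between Prm2-/- and Prm2+/+ had an unadjusted p of 0.0464 and an adjusted p of 0.674 in limma, and without replicate 3 of Prm2+/+ it was -0.17 (SE 0.10, adjusted p = 0.699). The genes with the closest pattern among 6067 were H2al2a (0.0342), Skiv2l2 (0.0403) and Eif5 (0.0430), by the same measure.
Slc2a3 (ENSMUSG00000003153) encodes GLUT3, a glucose transporter of sperm and neurons. It had 3291, 2702 and 2881 normalized counts in Prm2+/+, 2934, 3120 and 2934 in Prm2+/-, and 2763, 2455 and 2728 in Prm2-/-, and it varied least of the 10 genes (highest over lowest library 1.34). The Prm2-/- libraries lay below all Prm2+/- libraries and overlapped those of Prm2+/+, with an LFC of -0.16 against the latter (SE 0.09, adjusted p = 0.727 in limma).

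Aldoa (ENSMUSG00000030695), the aldolase of muscle and many other tissues, and Gpi1 (ENSMUSG00000036427), the glucose-6-phosphate isomerase, held intermediate levels. Aldoa had 926, 936 and 1188 normalized counts in Prm2+/+, 1009, 925 and 1002 in Prm2+/-, and 1034, 1016 and 1286 in Prm2-/-. Gpi1 had 635, 729 and 990 in Prm2+/+, 684, 692 and 717 in Prm2+/-, and 650, 683 and 770 in Prm2-/-. The groups of both genes overlapped between Prm2-/- and Prm2+/+, with an LFC of 0.13 (SE 0.13) for Aldoa and -0.14 (SE 0.16) for Gpi1. The sign of Gpi1 turned without replicate 3 of Prm2+/+, to 0.04 (SE 0.10). Without that library the LFC of Aldoa was 0.25 (SE 0.11, adjusted p = 0.61 in limma). Small parts of the last 500 transcript bases are shared with other annotated genes, 3.33% of 50-base windows for Aldoa and 4.21% for Gpi1, against 0% for each of the other 8 genes.

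Eno4 and Hk1 had low levels and wide spreads. Eno4 (ENSMUSG00000048029), an enolase of the sperm tail, had 58.0, 160.7 and 196.7 normalized counts in Prm2+/+, 178.0, 73.1 and 76.9 in Prm2+/-, and 93.3, 105.5 and 75.0 in Prm2-/-. Its highest libraries, over 160 counts, were in Prm2+/+ and Prm2+/-, and each of these groups also held lower libraries. The LFC of Prm2-/- against Prm2+/+ was -0.44 (SE 0.50, adjusted p = 0.817 in limma), and -0.10 (SE 0.52) without replicate 3 of Prm2+/+.
Hk1 (ENSMUSG00000037012) encodes hexokinase 1, which starts the pathway by phosphorylating glucose. It makes spermatogenic transcripts that differ at their 5′ end, which 3′ reads do not separate. Hk1 had 35.2, 48.2 and 29.8 normalized counts in Prm2+/+, 69.2, 52.1 and 37.1 in Prm2+/-, and 38.9, 78.1 and 57.0 in Prm2-/-. All 3 groups overlapped, and the LFC of Prm2-/- against Prm2+/+ was 0.58 (SE 0.32, adjusted p = 0.726 in limma). Whether the counting used strand is not given in the sources used here, so reads of Hk1 and its antisense gene Hk1os could be mixed. Gapdhs, Eno4, Gpi1, Aldoa and Slc2a3 also overlap other annotated genes.

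**Figure D2:**
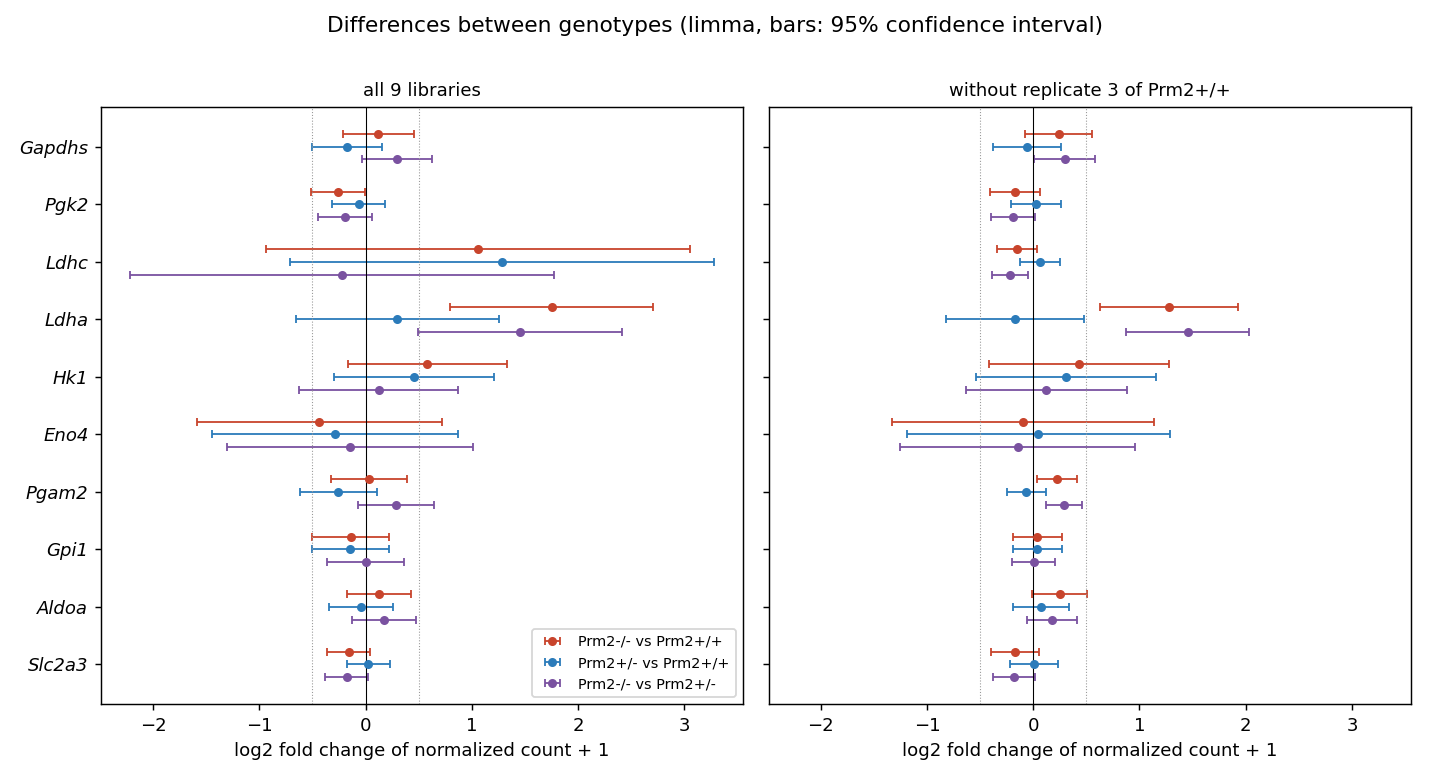
LFC of each of the 10 genes on the log2(normalized count + 1) scale (horizontal axis) for the 3 comparisons, as points with 95% confidence intervals from limma, with all 9 libraries (left) and without replicate 3 of Prm2+/+ (right); dotted lines mark an LFC of 0.5 in either direction. The point of Ldhc against Prm2+/+ moves from 1.06 to -0.15, and Ldha keeps its place above 1 against both other genotypes.

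With all 9 libraries, more of these genes separated between Prm2-/- and Prm2+/- than between the other genotypes. The libraries did not overlap for 7 of the 10 genes, 4 higher in Prm2-/- (Gapdhs, Pgam2, Aldoa and Ldha) and 3 lower (Pgk2, Ldhc and Slc2a3), where 14.7% of all tested genes did not overlap. Apart from Ldha the differences were small, with an LFC of 0.18 to 0.30 for the higher genes and -0.22 to -0.18 for the lower ones, and none passed the adjustment in limma. Between Prm2-/- and Prm2+/+ the libraries did not overlap for 1 of 10 genes (Ldha), beside 14.0% of tested genes, and between Prm2+/- and Prm2+/+ for 0 of 10, beside 9.44%. These comparisons share libraries, and the count for Prm2-/- against Prm2+/+ depends on replicate 3 of Prm2+/+. That library alone made Ldhc, Pgam2 and Aldoa overlap there. Replicates 1 and 2 of Prm2+/+ had 32530 and 30090 for Ldhc, 2663 and 2808 for Pgam2, and 926.5 and 935.5 for Aldoa. The Prm2-/- libraries had at most 28720, at least 3016 and at least 1016. Smaller groups separate more readily, and the share of all tested genes without that library was not computed.

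Each germ-cell or sperm gene was then set against its counterpart within each library, where the scaling of libraries cancels. Gapdhs exceeded Gapdh, the enzyme of other tissues, 263- to 432-fold in normalized counts. Pgk2 exceeded Pgk1 by 45.5- to 342-fold, Ldhc exceeded Ldha by 378- to 2530-fold, Pgam2 exceeded Pgam1 by 21.9- to 33.9-fold and Slc2a3 exceeded Slc2a1, which encodes GLUT1, by 75.6- to 182-fold. These 5 genes were higher than their counterparts in 9 of 9 libraries, also per kb of transcript.
The order was the other way for 2 pairs. Hk1 took 0.201 to 0.445 of the normalized count of Hk2, another hexokinase, and Aldoart1, an aldolase retrogene of germ cells, 0.223 to 0.4 of that of Aldoa. Both were lower in 9 of 9 libraries, also per kb. The other germ-cell aldolase, Aldoart2, was not among the pairs, and its 1810 to 2761 normalized counts lay above the 925 to 1286 of Aldoa. Eno4 took 0.360 to 1.09 of the count of Eno1, the enolase of most tissues, and exceeded it in 1 of 9 libraries and per kb in 0.
The counts of some counterparts need care. Of the 50-base windows in the last 500 transcript bases, 90.5% of Gapdh, 75.2% of Eno1 and 7.32% of Pgk1 also occur in other annotated genes, for Gapdh in 138 of them of which 135 are pseudogenes, while Pgam1, Hk2, Slc2a1 and Aldoart1 share 0%. Reads from such windows can be split between copies, and the authors removed pseudogenes from the table. Gapdh had 11.5 to 16.4 normalized counts, and whether it is undercounted was not tested. The genes that share windows with Eno1 include Eno1b, which had 174.8 to 231.3 normalized counts and shares 82.3% of its own windows. How reads were split between Eno1 and Eno1b was not tested, so the ratio of Eno4 to Eno1 depends on that split.

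**Figure D3:**
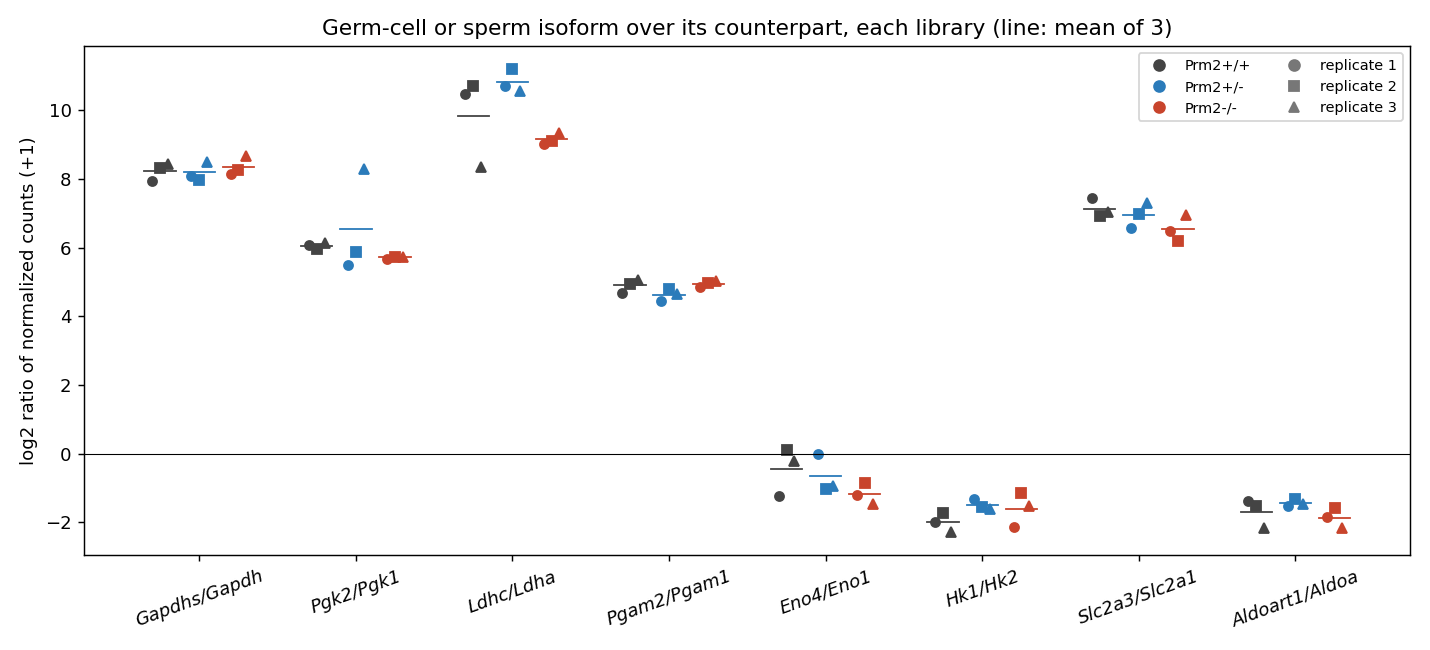
Log2 ratio of normalized counts (each plus 1) of the first over the second gene for 8 pairs (horizontal axis) in each of the 9 libraries, coloured by genotype, with symbols for the replicate number and a line at the mean of 3 libraries; 0 means equal counts. The Ldhc/Ldha ratio of the Prm2-/- libraries (9.02 to 9.34) lies below all Prm2+/- libraries (10.6 to 11.2), and replicate 3 of Prm2+/+ (8.36) lies below both.

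None of the 8 ratios passed the test of a difference between the 3 genotypes. An exact permutation test over the 1680 assignments of 9 libraries to 3 groups, which is two-sided and can go no lower than 0.00357, gave p from 0.111 to 0.768, and 0.446 to 0.768 after Benjamini-Hochberg adjustment over the 8 pairs. The Ldhc/Ldha ratio had log2 values of 10.5, 10.7 and 8.36 in Prm2+/+, 10.7, 11.2 and 10.6 in Prm2+/-, and 9.02, 9.10 and 9.34 in Prm2-/-. The mean of Prm2-/- minus that of Prm2+/+ was -0.69 on the log2 scale, and -1.43 without replicate 3 of Prm2+/+. The test over all 3 genotypes, which is not a test of that difference, gave an exact permutation p of 0.114 (adjusted 0.446), and 0.0179 (adjusted 0.143) without that library.
The Pgk2/Pgk1 ratio held 1 library apart, replicate 3 of Prm2+/-, with 8.28 against 5.49 to 6.13 in the other 8. Pgk2 was unremarkable in that library (3321 normalized counts), while Pgk1 had 9.72 there and 46.5 to 71.2 in the others. The Prm2-/- ratios (5.68 to 5.74) lay below those of Prm2+/+ (5.96 to 6.13). Without the library apart the exact permutation p over the 3 genotypes was 0.0393, or 0.314 after adjustment. With any other library left out, this p was 0.111 to 0.886. For Ldhc/Ldha it was 0.111 to 0.257 with a library other than replicate 3 of Prm2+/+ left out. The adjustment covers the 8 pairs and not the choice of library.

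The other glycolysis genes gave no call either. Of 39 genes in lists of germ-cell isoforms, somatic counterparts and other steps, 38 had a row and 31 were tested, and 0 of 31 were called in each comparison in limma, beside the same 0.181%, 0.0806% and 0.175%. Unadjusted p in limma was under 0.05 for 6, 2 and 1 of them, beside 7.33%, 4.24% and 5.44% of all tested genes. With all 9 libraries edgeR also called 0 in each, beside 0.161%, 0.0671% and 0.154%. DESeq2 called 0 in each as well, beside 0.787%, 0.313% and 0.619% of the genes it tested. The median LFC between Prm2-/- and Prm2+/+ was 0.14 in the 31 genes. Pfkfb2 was not analysed here.
Among the other germ-cell isoforms, Aldoart2, a further aldolase retrogene, had the lowest LFC. It had 2053 to 2761 normalized counts in Prm2+/+ and 1810 to 1953 in Prm2-/-, with an LFC of -0.31 (adjusted p = 0.604 in limma) and no overlap. The highest LFC of that list was 0.14, for Pdha2, the pyruvate dehydrogenase subunit of germ cells, with 381 to 547 and 462 to 543 counts in the same genotypes.
Ldhal6b, a retrogene related to lactate dehydrogenase A, did not pass the filter and is named after its values were seen. It was at 3768 normalized counts in replicate 1 of Prm2+/+ and at 3683 in replicate 2 of Prm2+/-, and at 0 in the other 7 libraries. Ldhal6b overlaps the annotated genes Gm29050 and Tmem242, and how reads were split among them was not tested.

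Several enzymes of other steps took 2 levels by library, as Ldhc did. This held for 6 of the 31 pathway genes, beside 10.4% of all tested genes. Pkm, the pyruvate kinase of most tissues, had 44.2 counts in replicate 3 of Prm2+/+ and 30.1 in replicate 2 of Prm2+/-, against 633 to 800 in the other 7, and had the highest LFC of its list (1.53, adjusted p = 0.782 in limma). Pfkp, a phosphofructokinase, had 13.3 in replicate 3 of Prm2+/- and 6.34 in replicate 3 of Prm2-/-, against 342 to 617, and had the lowest (-2.24, adjusted p = 0.756). No low library of Pkm was Prm2-/-, and no low library of Pfkp was Prm2+/+. In the list of somatic counterparts, the lowest LFC was that of Eno2, the neuronal enolase, with 0 to 12.9 counts. A fitted LFC of a gene this low depends on the pseudocount.
Pgk1, Pgm1 and Pfkfb1 also took 2 levels. Pfkfb4, which makes the regulator of phosphofructokinase, had 40.8 in replicate 1 of Prm2-/- and 148 and 129 in replicates 2 and 3, against 36.1 to 47.5 in the other 6 libraries.

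**Figure D4:**
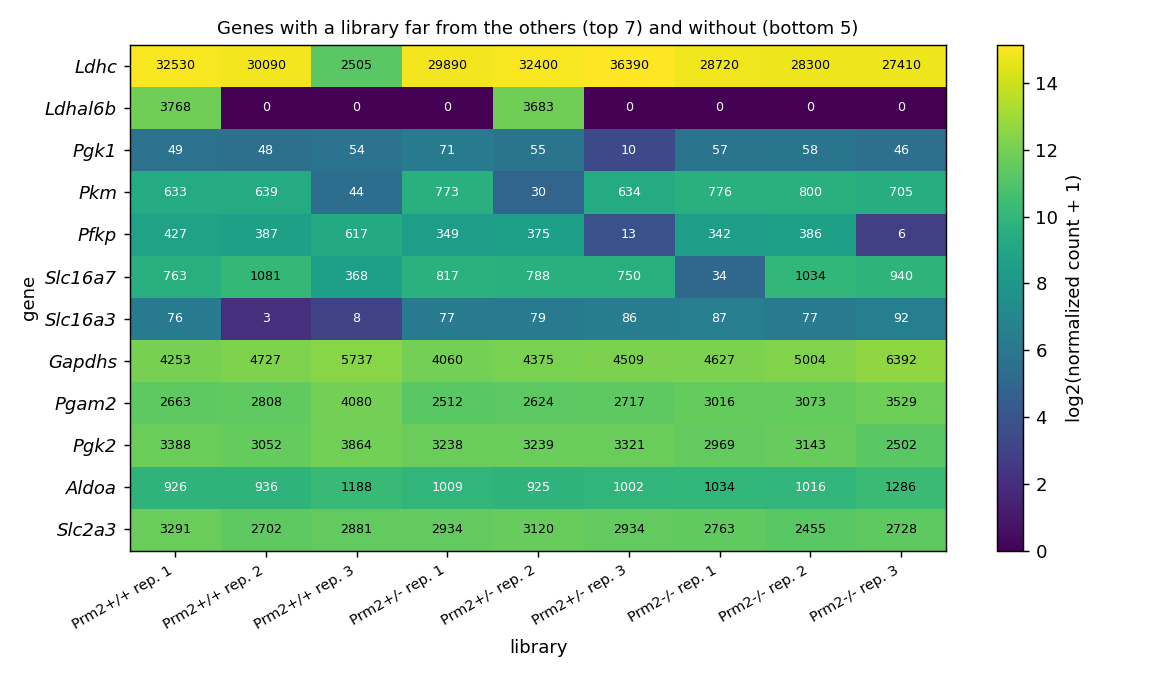
Log2(normalized count + 1) as colour, with the normalized count written in each cell, for 12 glycolysis and transport genes (rows) in the 9 libraries (columns), chosen after their values were seen: 7 with libraries far from the rest above and 5 without below. The low or high libraries differ from gene to gene, for example replicate 3 of Prm2+/+ for Ldhc (2505) and replicate 3 of Prm2-/- for Pfkp (6.34).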

How the data were processed

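The deposited table holds testis RNA of 9 males, 3 per genotype, as normalized counts. The authors made this signal with Trim Galore 0.4.5, HISAT2 2.1 (GRCm38), StringTie 1.3.3 and DESeq2, dividing gene counts by 1 size factor per library, after removing pseudogenes. Per the labels, reads were taken at 3′ ends. The study describes the libraries of a genotype as biological replicates.

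Whole counts were recovered by dividing each value by the step of its library (100% whole within 1e-06 counts). In replicate 1 of Prm2+/- the step lies near 1, which is a weaker sign. Counts are limited by counting error, and a gene at 0 allows up to 3 counts. Genes were kept by filterByExpr of edgeR 4.0.16 (14893 genes), and limma 3.58.1 with trend was fitted to log2(normalized count + 1) of all 9 libraries with genotype as the only term, which understates changes of low genes. The edgeR quasi-likelihood test and DESeq2 1.42.0 on recovered counts were alternatives, beside TMM scaling, pseudocounts of 0.5 and 5, other filters, the 6 libraries compared, a replicate block and leaving out each library. The count fits without replicate 3 of Prm2+/+ were chosen after seeing the data. Positions, exons and lengths (the longest transcript of the best APPRIS class per gene) are from GENCODE M21. Scripts ran in R 4.3.3 and Python 3.11.15 and were tested on simulated data.

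The genes and lists were chosen with earlier results of these data known. Named genes are the 10 genes, their counterparts, called genes of the lists and the highest and lowest LFC of each list, and the 3 genes nearest in pattern to Gapdhs, Pgk2 and Ldhc. Prm2 was named as the targeted gene. 1 gene that this rule selects is not reported here.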

Additional observations from a re-analysis of the deposited data

How the results depend on the processing

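The 10 genes gave 0 calls in each comparison under every limma and edgeR setting, and 1 call in DESeq2 with all libraries (Prm2-/- against Prm2+/+) and 1 in DESeq2 without replicate 3 of Prm2+/+ (Prm2-/- against Prm2+/-), Ldha both times. Ldha kept its direction in all 19 alternatives (LFC 1.28 to 2.07, adjusted p 0.0392 to 0.838). It was not tested where at least 10 counts were required in every sample. Other LFC values between Prm2-/- and Prm2+/+ reversed with a library left out. Gapdhs ranged from -0.017 (without replicate 3 of Prm2-/-) to 0.238, Ldhc from -0.153 (without replicate 3 of Prm2+/+, and -0.145 in edgeR and -0.150 in DESeq2) to 1.70, Pgam2 from -0.082 to 0.226 (-0.082 and -0.044 without replicates 1 or 2 of Prm2+/+, -0.038 without replicate 3 of Prm2-/-), and Gpi1 from -0.280 to 0.040 (without replicate 3 of Prm2+/+). None of these had been called, and the cause was not tested. With all libraries the LFC of Ldhc was 0.38 in edgeR and 0.37 in DESeq2 against 1.06 in limma. The log2 ratio difference of Gapdhs/Gapdh ranged from -0.030 to 0.230 with a library left out (-0.018 without replicate 1 of Prm2+/+) and that of Pgam2/Pgam1 from -0.056 to 0.137.

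Over all genes, limma called 27 between Prm2-/- and Prm2+/+, 12 between Prm2+/- and Prm2+/+ and 26 between Prm2-/- and Prm2+/-. In this order, DESeq2 called 140, 66 and 113, and 9, 1 and 11 were called with at least 10 counts in every sample. Only the 6 samples compared gave 53 for the first and 52 for the last, and no filter beyond a count above 0 gave 21 for the second. Leaving out a library gave 28 to 62, 9 to 43 and 23 to 49. With a library left out, the pathway genes gave 0 to 1 calls in each comparison, among them Pfkfb4 without replicate 1 of Prm2-/- in the first and last.

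Same-numbered libraries did not deviate together over all tested genes (correlations -0.04 to 0.04). These values weigh all genes alike, so they cannot show whether the numbers pair libraries for some genes only. With a replicate block 15, 6 and 14 genes were called, 0 of the 10 genes among them, and the ratios had exact permutation p-values of 0.0833 to 0.694, where 0.0278 is the smallest possible. TMM scaling moved no call of these genes. Ldha, Hk1 and Eno4 had the lowest counts of the 10 genes, so counting error is largest for them relative to level. Its part in their spread was not tested.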

Other observations

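Genes that bring other substrates to the pathway or handle its product were listed apart. Of 21 such genes 19 were tested, and 0 were called in each comparison in limma, beside 0.181%, 0.0806% and 0.175% of all tested genes. Unadjusted p was under 0.05 for 2, 1 and 0 of them, beside 7.33%, 4.24% and 5.44%. Sord, which makes fructose from sorbitol, had 6287 to 8061 normalized counts over the 9 libraries. Slc2a5, a fructose transporter, had 2166 to 2830, close to the 2455 to 3291 of Slc2a3. Mpc2, a subunit of the mitochondrial pyruvate carrier, had 2531 to 2952, while its partner Mpc1 had 20.99 to 49.4. These 4 genes outside the list extremes are named after their values were seen.

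The monocarboxylate transporters, which move lactate and pyruvate across the membrane, held libraries apart. Slc16a3 had the highest LFC of this list between Prm2-/- and Prm2+/+ (2.61, adjusted p = 0.603 in limma), with 3.22 and 7.74 counts in replicates 2 and 3 of Prm2+/+ and 76.0 to 91.9 in the other 7 libraries. Replicate 1 was the only Prm2+/+ library at the high level. Without it, Slc16a3 was called in limma against Prm2+/+, for Prm2-/- (LFC 3.83, adjusted p = 0.00377) and for Prm2+/- (LFC 3.75, adjusted p = 0.00639). Leaving it out kept only the low Prm2+/+ libraries, so these calls follow from that choice. In that fit 52 and 31 of the 14893 tested genes were called, beside 27 and 12 with all libraries. Slc16a7, named after its values were seen, had 33.5 counts in replicate 1 of Prm2-/- and 368 to 1081 in the other 8. Khk, ketohexokinase, had the lowest LFC (-1.34, adjusted p = 0.797 in limma), with 0 counts in 3 libraries and 7.25 to 19.4 in the other 6.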
